A study of Mus musculus with 19 samples.

Results

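The 46 genes described here encode Wnt ligands and their antagonists, receptors, cytoplasmic relays and nuclear factors, together with core planar polarity proteins. They were chosen by gene symbol and not by a cut on a measured value, but with earlier results of these data known. They came from 21000 protein-coding genes with a curated RefSeq transcript. All 46 were found in the annotation of the genome build used for the peaks (GRCm38, or mm10). They comprise 7 ligands, 6 secreted antagonists, 13 receptors and co-receptors, 2 membrane ubiquitin ligases, 10 cytoplasmic proteins, 4 nuclear TCF/LEF factors and 4 planar polarity proteins, and their spans run from 3.35 to 349 kb with a median of 33.5 kb. The quantity reported for each gene is the percent of its span, from the first transcript start to the last transcript end, that lay under peaks of 5-hydroxymethylcytosine (5-hmC).

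Wnt proteins are secreted signals that bind Frizzled receptors and the co-receptors Lrp5 and Lrp6. In cells without the signal, a cytoplasmic complex built on Axin and Apc brings the kinases Gsk3b and casein kinase to beta-catenin (Ctnnb1), which is then degraded; with the signal, Dishevelled proteins disable the complex, and beta-catenin joins TCF/LEF factors on DNA. A separate branch, which uses Ror and Ryk receptors, Vangl2, Prickle1, Celsr1 and Daam1, orients cells within a tissue without beta-catenin. Wnt signals are known to act in both directions on heart muscle precursors according to stage. 5-hmC is the product of oxidation of 5-methylcytosine by TET enzymes and is found mostly within gene bodies (GBs).

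Cardiomyocytes (CMCs) had been isolated from C57BL/6J mice at 4 points with 2 biological replicates each: embryos at E14.5, neonatal pups aged 1 or 2 days, adults aged 2 months, and adults kept under pressure overload for 1 week by constriction of the transverse aorta (TAC), an operation after which the left ventricle enlarges. No group carried a transgene or a deletion. DNA fragments bearing 5-hmC were enriched with an antibody and sequenced (hMeDIP-seq), and 1 peak list was deposited for each of the 8 samples. The CMC fractions were enriched and not pure, so a peak may come from a minority cell type, and a change in cell mixture cannot be told apart from a change within CMCs.

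The lists held from 104215 to 153637 peaks and covered from 65.1 to 119 Mb. The commonest peak width was 501 bp in every list. The second TAC list stood apart: it covered the fewest bases, 65.1 Mb against 75.1 Mb in the other TAC list, and 357 of its peaks were at least 2 kb wide against 2784. Several contrasts with TAC are therefore also given without this list. The share of peaks with a CA run, meaning at least 5 CA units in a row on either strand of the central 300 bp, also divided the replicates: it was 22.2%, 18% and 14.1% in the second E14.5, neonatal and adult lists, and between 6.52% and 8.35% in the other 5. Across 8 cardiomyocyte marker genes the mean percent covered was between 25 and 35.4 in the E14.5 and neonatal lists and between 11.2 and 16.5 in the adult and TAC lists. From neonatal to adult all 8 were lower without overlap, where 18.4% of all genes were. Across 8 fibroblast marker genes it lay between 0.695 and 2.81, with no peak in any list on the fibroblast genes Col3a1 and Tcf21. Endothelial markers (6 genes) lay between 7.05 and 14.2 before TAC and at 5.47 and 5.44 with TAC. In both TAC lists 4 of the 6 were lower than in both adult lists, where 20.4% of all genes were. This count was not made without the second TAC list. Epicardial markers (3 genes) lay between 0.709 and 8.63, and smooth muscle markers (3 genes) between 3.34 and 14.7. The part of cell composition in the results below was not tested.

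The sequences below show what the peaks on these genes contain. Each is a stretch of the mm10 reference, written 5′ to 3′ on the strand of its gene, from a region that both replicates of at least 1 point shared, with every CpG, the substrate of the modification, in capitals. The first 5 come from the regions that both replicates of all 4 points shared. They are the stretch in an intron of Prickle1 at chr15:93553314-93553613, 42.4 kb from the gene's start, the intronic stretch of Vangl2 at chr1:172025687-172025986, 1.46 kb from its start, the intronic stretch of Ror1 at chr4:100398779-100398963, 303 kb from its start, and the intronic stretches of Tcf7l2 at chr19:55778043-55778142 and of Gsk3b at chr16:38178001-38178054.
Prickle1: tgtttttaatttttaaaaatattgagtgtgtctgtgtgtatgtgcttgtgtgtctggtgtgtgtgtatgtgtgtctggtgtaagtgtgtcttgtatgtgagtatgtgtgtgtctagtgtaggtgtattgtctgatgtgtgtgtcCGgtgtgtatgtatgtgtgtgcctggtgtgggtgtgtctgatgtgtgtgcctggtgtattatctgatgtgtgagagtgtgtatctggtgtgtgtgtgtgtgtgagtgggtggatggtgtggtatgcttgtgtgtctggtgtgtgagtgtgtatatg
Vangl2: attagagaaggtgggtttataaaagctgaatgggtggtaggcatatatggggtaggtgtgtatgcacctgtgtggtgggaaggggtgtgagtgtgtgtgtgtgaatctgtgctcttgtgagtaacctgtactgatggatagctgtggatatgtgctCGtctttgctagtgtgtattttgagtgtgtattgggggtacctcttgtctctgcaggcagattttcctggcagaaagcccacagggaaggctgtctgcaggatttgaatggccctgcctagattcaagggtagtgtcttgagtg
Ror1: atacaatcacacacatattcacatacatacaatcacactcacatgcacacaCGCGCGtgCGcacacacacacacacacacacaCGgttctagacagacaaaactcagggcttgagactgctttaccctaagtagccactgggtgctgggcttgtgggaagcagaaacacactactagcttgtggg
Tcf7l2: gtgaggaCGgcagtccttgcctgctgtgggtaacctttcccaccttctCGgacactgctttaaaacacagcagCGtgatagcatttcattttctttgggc
Gsk3b: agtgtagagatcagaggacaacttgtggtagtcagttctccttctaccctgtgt
The stretch of Prickle1 was made largely of TG repeats, that of Vangl2 held a shorter TG run within other sequence, and each had 1 CpG in 300 bases. That of Ror1 held 5 CpGs around a CA run, that of Tcf7l2 held 3, and that of Gsk3b held none.

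A further 3 sequences are from genes whose coverage differed between the points. That of Sfrp1 lay in an intron at chr8:23434042-23434341, 22.7 kb from the start, under peaks of the 4 E14.5 and neonatal lists and of no adult or TAC list. That of Dvl2 lay at chr11:70009258-70009549, centred on a coding exon 8.81 kb from the start, and that of Fzd5 at chr1:64735452-64735751, in its coding exon 2.15 kb from the start. Both of the latter were shared by both adult and by both TAC lists, but not by them alone: the first E14.5 and first neonatal lists also covered the stretch of Fzd5, and a peak of the second neonatal list reached into that of Dvl2.
Sfrp1: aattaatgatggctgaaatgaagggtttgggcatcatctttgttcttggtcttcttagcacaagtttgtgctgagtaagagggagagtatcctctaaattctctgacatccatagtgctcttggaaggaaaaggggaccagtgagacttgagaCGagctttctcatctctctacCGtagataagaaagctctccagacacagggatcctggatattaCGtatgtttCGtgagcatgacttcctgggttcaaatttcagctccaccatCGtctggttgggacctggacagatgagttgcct
Dvl2: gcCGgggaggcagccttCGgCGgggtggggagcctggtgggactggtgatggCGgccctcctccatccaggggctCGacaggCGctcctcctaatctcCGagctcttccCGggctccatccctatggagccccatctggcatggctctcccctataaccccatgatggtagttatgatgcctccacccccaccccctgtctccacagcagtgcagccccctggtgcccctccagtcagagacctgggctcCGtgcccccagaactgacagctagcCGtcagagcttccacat
Fzd5: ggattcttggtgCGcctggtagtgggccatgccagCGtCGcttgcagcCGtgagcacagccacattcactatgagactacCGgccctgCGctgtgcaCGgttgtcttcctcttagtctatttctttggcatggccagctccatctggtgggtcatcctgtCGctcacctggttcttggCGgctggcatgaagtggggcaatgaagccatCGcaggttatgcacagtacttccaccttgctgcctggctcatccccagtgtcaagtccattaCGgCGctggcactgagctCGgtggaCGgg
These held 5, 10 and 14 CpGs, respectively, and the coding stretches of Dvl2 and Fzd5 had no TG repeat of the kind seen in Prickle1.

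The 46 genes were covered more densely than other genes. Their mean percent covered was 10.1 ± 0.925 (SD, n = 2 lists) at E14.5, 14.8 ± 1.07 in neonatal CMCs, 15.7 ± 3 in adults and 10.2 ± 3.71 with TAC. All 18624 protein-coding genes of at least 2 kb had means of 5.75, 7.66, 8.25 and 5.6 at the same points. Against the mean of genes in the same of 20 length classes, the ratio was 1.73, 1.92, 1.97 and 1.85 at E14.5, neonatal, adult and TAC, and it lay between 1.68 and 2 in each of the 8 lists. These ratios are descriptions of the lists with no test. The density was not particular to the 46: a second list of pathway genes, given below, also lay above all genes in every list. A peak was present in all 8 lists on 32 of the 46 genes, and on Dkk1, whose product blocks Lrp5 and Lrp6, there was none in any list.

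The role groups differed in level and in course. Planar polarity genes were the most densely covered, with 3.03, 3.84, 3.58 and 2.81 times the mean of their length classes at E14.5, neonatal, adult and TAC. Cytoplasmic genes had ratios of 1.75, 2.36, 2.83 and 2.49, and receptors 1.45, 1.82, 2.11 and 2.15, so that in both groups both adult lists lay above both E14.5 lists. The cytoplasmic mean leaned on Dvl2, which was covered over a mean of 15.6% in neonatal and 69.8% in adult CMCs. From neonatal to adult, 2 cytoplasmic members were higher without overlap and 2 lower. The group ratio was not computed without Dvl2. For the TCF/LEF factors the 4 points had ratios of 2.72, 2.53, 2.07 and 2.08 in the same order, and both adult lists lay below both E14.5 lists. Their mean percent covered was 16.3 ± 0.75 (SD, n = 2 lists) at E14.5 and 15.8 ± 3.5 in adult CMCs, and the 4 genes were divided: Lef1 was lower in both adult lists, Tcf7l1 and Tcf7l2 were higher, and Tcf7 overlapped. With the lists scaled to the same mean, the fitted changes of Tcf7l1 and Tcf7l2 turned from 0.454 and 0.292 to -0.0296 and -0.202. The secreted antagonists were near their length classes at E14.5, with a ratio of 0.973, and at 0.435 in adult and 0.415 in TAC CMCs. The ligands had a ratio of 1.82 at E14.5 and between 1.33 and 1.35 at the later points, and the 2 ubiquitin ligases lay under their length classes at every point. In the first TAC list alone, the ratios were 2.97 for planar polarity genes, 2.96 for cytoplasmic genes, 1.83 for receptors, 2.53 for TCF/LEF factors and 0.276 for antagonists.

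**Figure D1:**
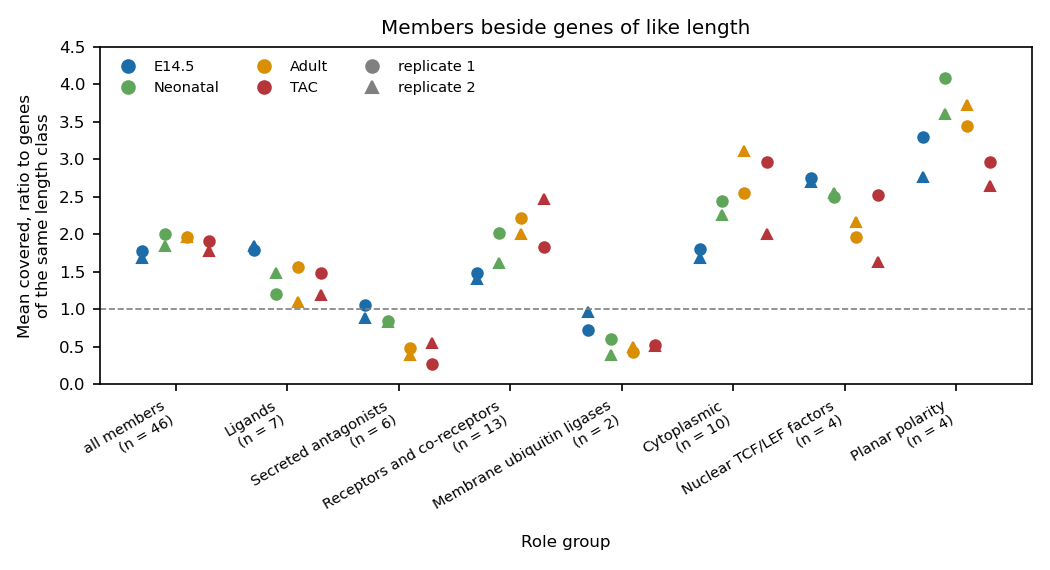
Mean percent covered of each role group divided by the mean of all protein-coding genes in the same length classes (vertical axis, no unit), for each of the 8 lists, where colour marks the point, the circle replicate 1 and the triangle replicate 2; the dashed line marks equal coverage. Planar polarity genes lay between 2.65 and 4.08 in the 8 lists, while secreted antagonists were at 1.06 and 0.886 at E14.5 and between 0.276 and 0.553 in the adult and TAC lists.

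The change over the points was tested for every gene with limma on log2(percent covered + 1), with Benjamini-Hochberg adjustment over all 14886 genes that had at least 2 kb and a mean of at least 1%. Of the 46 members, 44 could be tested, all but Sfrp5 and Dkk1, and none passed an adjusted p of 0.05 over the 4 points, where 1.55% of all genes did. The smallest adjusted p was 0.26, for Ror2. At an unadjusted p under 0.05 there were 9 members (20.5% of those tested) against 11.9% of all genes, namely Ror2, Fzd3, Dvl2, Rnf43, Fzd5, Sfrp1, Lef1, Dkk2 and Wnt2. No member passed in any contrast between 2 points either, and 1, 6, 5 and 11 members had an unadjusted limma p under 0.05 from E14.5 to neonatal, neonatal to adult, adult to TAC and E14.5 to adult. These are 2.27%, 13.6%, 11.4% and 25% of the tested members, against 6.8%, 9.07%, 6.84% and 16.4% of all genes. The limma share of all genes called higher and lower was 0.047% and 0% from E14.5 to neonatal, 0.578% and 0.423% from neonatal to adult, 0.101% and 0.383% from adult to TAC, and 1.03% and 0.457% from E14.5 to adult. The differences below are therefore given as values, with the replicates that did or did not overlap, and not as changes that passed the test.

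Replicates of neighbouring points did not overlap for many members. From E14.5 to neonatal CMCs, 19 members (41.3%) were higher in both replicates and 5 (10.9%) lower, against 22.1% and 5.58% of all genes. From neonatal to adult CMCs, 6 members (13%) were higher and 12 (26.1%) lower, against 14% and 18.4% of all genes. From adult to TAC, none was higher and 15 (32.6%) lower, against 5.16% and 20.4%. Between E14.5 and adult CMCs, 19 (41.3%) were higher and 7 (15.2%) lower, against 24.9% and 15.4%. All genes were not matched to the members for length or coverage here. A gene without a peak at both points cannot be counted, and a peak lay on 38 to 42 of the 46 members per list. Of the 18624 genes, 12115 to 13394 held a peak.

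Part of this was shared by all genes. The median log2 change of all genes was 0.231 from E14.5 to neonatal, -0.00346 from neonatal to adult, -0.371 from adult to TAC and 0.244 from E14.5 to adult, and the median of the members was 0.384, -0.0261, -0.523 and 0.363. After the lists were scaled to the same mean, these medians were -0.0168, -0.0968, 0.0328 and -0.0929 for all genes. Those of the members were then 0.00722, -0.0633, 0.0276 and -0.0689, close to those of all genes. With each list divided by its mean over genes, the members without overlap became 9 higher and 11 lower from E14.5 to neonatal (13% and 17.4% of all genes), 7 and 14 from neonatal to adult (13.4% and 23.4%), 7 and 7 from adult to TAC (14.4% and 9.73%), and 11 and 14 from E14.5 to adult (16.4% and 26%). With the second TAC list left out, 4 members lay above and 16 below both adult lists (17.3% and 26.8% of all genes). With the lists so scaled, the fitted change took the other sign for 9, 1, 16 and 11 of the 44 tested members in these contrasts. It did so for none of the 21 largest differences, meaning up to 3 per contrast and direction without overlap, where a member can enter in several contrasts. These were picked for their size in the same lists, so their unchanged sign says little about the other members.

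**Figure D2:**
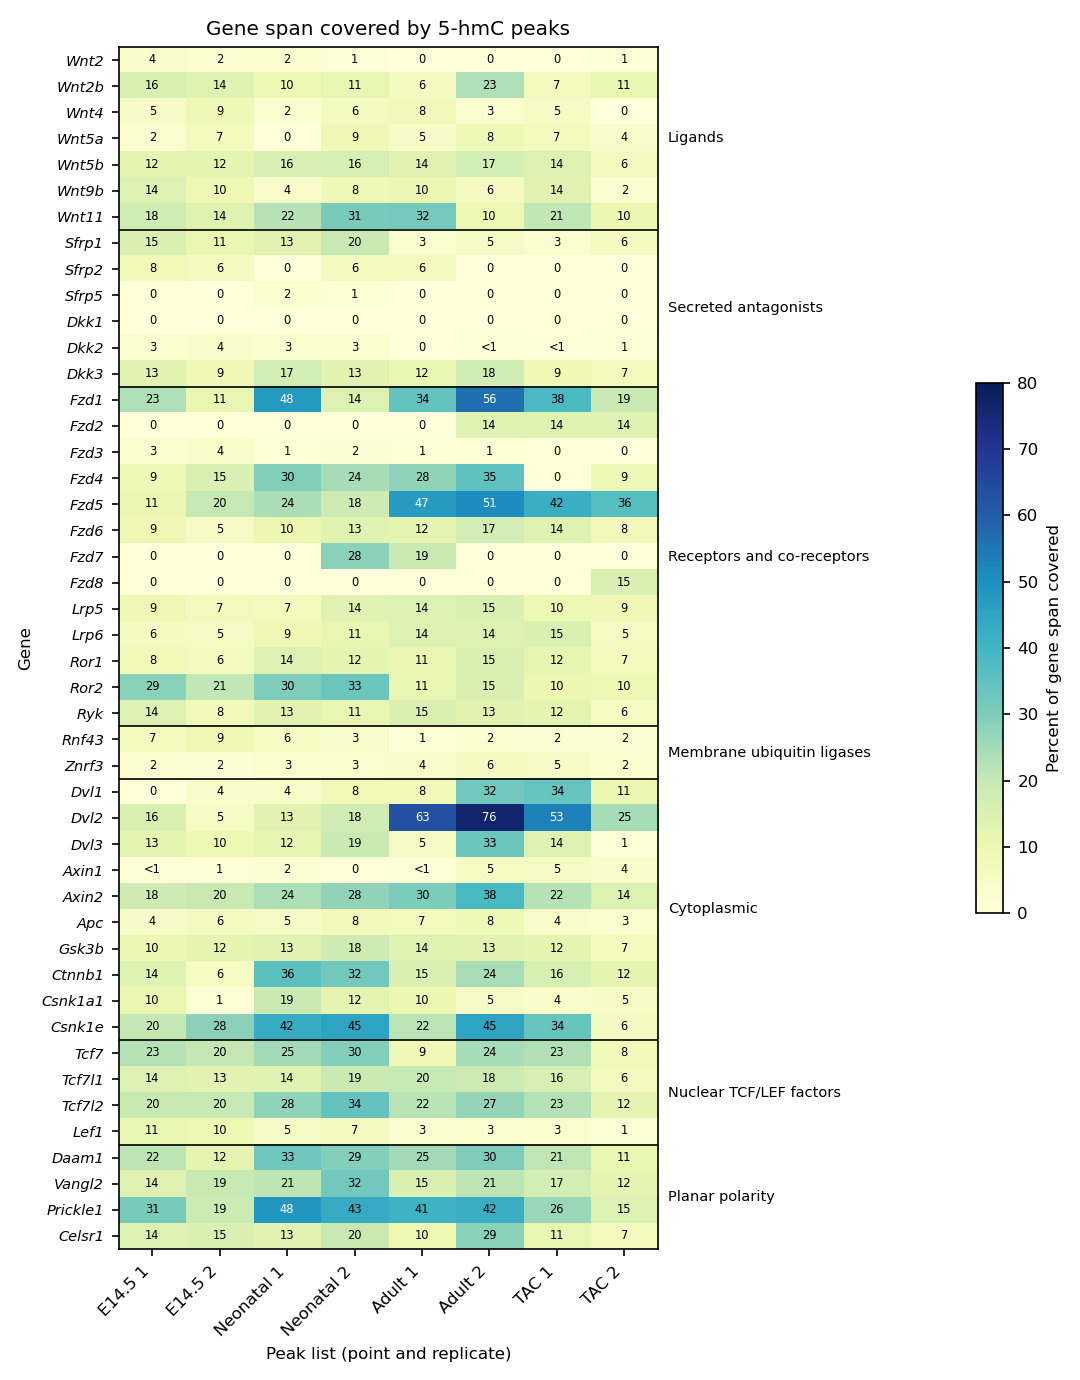
Percent of the gene span under 5-hmC peaks (colour and printed number, in percent, rounded) for the 46 genes in rows, by role, and the 8 lists in columns. Dvl2 stood at 63 and 76 in the adult lists, and Dkk1 at 0 throughout.

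Among the ligands, Wnt11, which signals without beta-catenin in the developing heart, had the highest mean over the 8 lists (19.7%; chr7:98835112-98854747). Its percent covered was 18.1 and 14 at E14.5, 22.2 and 31 in neonatal CMCs, 31.7 and 9.97 in adult CMCs, and 20.7 and 10.2 after TAC. The adult replicates lay on both sides of the neonatal ones, so the order of its later points was not resolved. Wnt9b (chr11:103727363-103749821), a canonical ligand, stood at 14.4 and 9.6 at E14.5 and at 3.93 and 8.47 in neonatal CMCs, then at 10 and 5.68 in adult CMCs, and 13.6 and 2.23 after TAC. Wnt2b (chr3:104944805-104961709), a further canonical ligand, stood at 15.5 and 13.9, then 9.72 and 11.3, then 5.93 and 23.3, and after TAC at 6.92 and 11. Both were lower in both neonatal than in both E14.5 lists, by 5.8 and 4.21 percentage points, which were among the 3 largest such differences in the set, and neither passed (limma adjusted p = 0.874 and 0.939). Wnt2, a ligand made in the early heart field, was covered over 3.62% and 2.41% at E14.5, 2.41% and 1.21% in neonatal CMCs, and held no peak in either adult list, while 1 of the TAC lists had 1.21%.

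Among the secreted antagonists, Dkk3, a divergent Dickkopf protein, had the highest mean over the lists (12.1%; chr7:112116019-112159482). It was covered over 13.1% and 8.81% at E14.5, 17% and 12.9% in neonatal CMCs, 11.5% and 17.5% in adult CMCs, and 8.79% and 7.42% after TAC, where both lists were below both adult ones. Its log2 change from adult to TAC was -0.746, or -0.201 with the lists scaled to the same mean. Sfrp1, which binds Wnt proteins outside the cell (chr8:23411502-23449632), was covered over 15.3% and 10.7% at E14.5, 13.1% and 19.6% in neonatal CMCs, 3.3% and 4.69% in adult CMCs, and 2.63% and 5.8% after TAC. All 4 E14.5 and neonatal lists lay above all 4 adult and TAC lists. The log2 change from neonatal to adult was -1.78 ± 0.478 (SE; limma adjusted p = 0.358). E14.5 lists had 7 and 4 peaks on Sfrp1 and neonatal lists 8 and 11, whereas each adult and TAC list had 2 or 3. Dkk2, which binds Lrp6, followed the same order at a lower level, with 2.64% and 4.11%, 3.32% and 2.9%, then 0% and 0.663% in adult CMCs, and 0.527% and 1.05% after TAC.

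The receptors held genes with opposite courses. Ror2, a receptor tyrosine kinase that binds Wnt5a (chr13:53109317-53286124), was covered over 28.7% and 20.7% at E14.5, 30.1% and 33.3% in neonatal CMCs, 10.7% and 15.2% in adult CMCs, and 10% and 9.69% after TAC. Again all early lists lay above all adult and TAC lists, and the log2 change from neonatal to adult was -1.25 ± 0.338 (SE; limma adjusted p = 0.363). In the part of the gene nearest its start (0.25 of the span), the E14.5 and neonatal lists covered between 23.5% and 44.1%, and the adult and TAC lists between 9.47% and 19%. The 20 kb on each side of Ror2 were covered over 9.26% to 12% in the 4 early lists, 8.93% and 7.26% in the adult lists, and 9.77% and 9.44% after TAC, so that the adult lists lay below the early ones in the flanks too, by less than in the GB. The log2 change from neonatal to adult was -0.84 with an equal number of peaks per list, -0.446 with peaks that hold a CA run left out, and -0.151 when peak centres per 10 kb were counted in place of covered bases. Here and below, a peak was left out when a CA run lay anywhere in it, not only in its central 300 bp. This kept between 68.7% and 86.6% of the peaks of each list. Ror1 (chr4:100095791-100444806), the paralogue of Ror2, did not follow it, with 8.13% and 6.36% at E14.5, 14.4% and 12.3% in neonatal CMCs, 10.6% and 14.9% in adult CMCs, and 11.6% and 7.31% after TAC.

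Fzd5 (chr1:64730558-64737750), a Frizzled receptor with its coding sequence in a single exon, had the highest mean coverage among receptors (31.1%). Its percent covered was 10.6 and 20 at E14.5, 24 and 18.2 in neonatal CMCs, 47.1 and 50.8 in adult CMCs, and 41.8 and 36.3 after TAC. The adult and TAC lists lay above all E14.5 and neonatal lists. Fzd5 is 7.19 kb long and held 1 or 2 peaks in each list before TAC, and 4 and 2 after. The log2 change from E14.5 to adult was 1.68 ± 0.377 (SE; limma adjusted p = 0.146). The flanks of 20 kb went the other way, from between 4.54% and 7.13% in the early lists to between 1.57% and 3.77% in the adult and TAC lists. The log2 change from E14.5 to adult was also 1.68 with CA-run peaks left out, but 1.01 with an equal number of peaks (limma adjusted p = 0.726) and 0.475 with peak centres counted.

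Fzd1 (chr5:4753839-4758216), a receptor encoded by 1 exon, was at 23.4% and 11.4% at E14.5, 47.6% and 14.3% in neonatal CMCs, 34.2% and 56.4% in adult CMCs, and 38.4% and 19% after TAC. Its adult lists lay above its E14.5 lists, while the neonatal replicates were far apart. Fzd1 is 4.38 kb long and held 1 peak in every list but the first adult list, which had 2. Its values thus mostly stand for the width of 1 peak. Fzd4 (chr7:89404366-89410110), the receptor for norrin as well as Wnt, was at 8.72% and 15.3%, then 29.8% and 24.4%, then 27.8% and 35.2%, and after TAC at 0% and 8.72%. It was lower in both TAC lists than in any neonatal or adult list. The log2 change from adult was -3.37 ± 1.04 (SE; limma adjusted p = 0.57), or -2.8 with the lists scaled to the same mean. Without the second TAC list the change was -5.01 with an adjusted p of 0.0384, which rests on a single TAC list with no peak on the gene. As Fzd4 is 5.75 kb long and the peak width mostly 501 bp, its TAC values stand for no peak and for 1 peak.

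**Figure D3:**
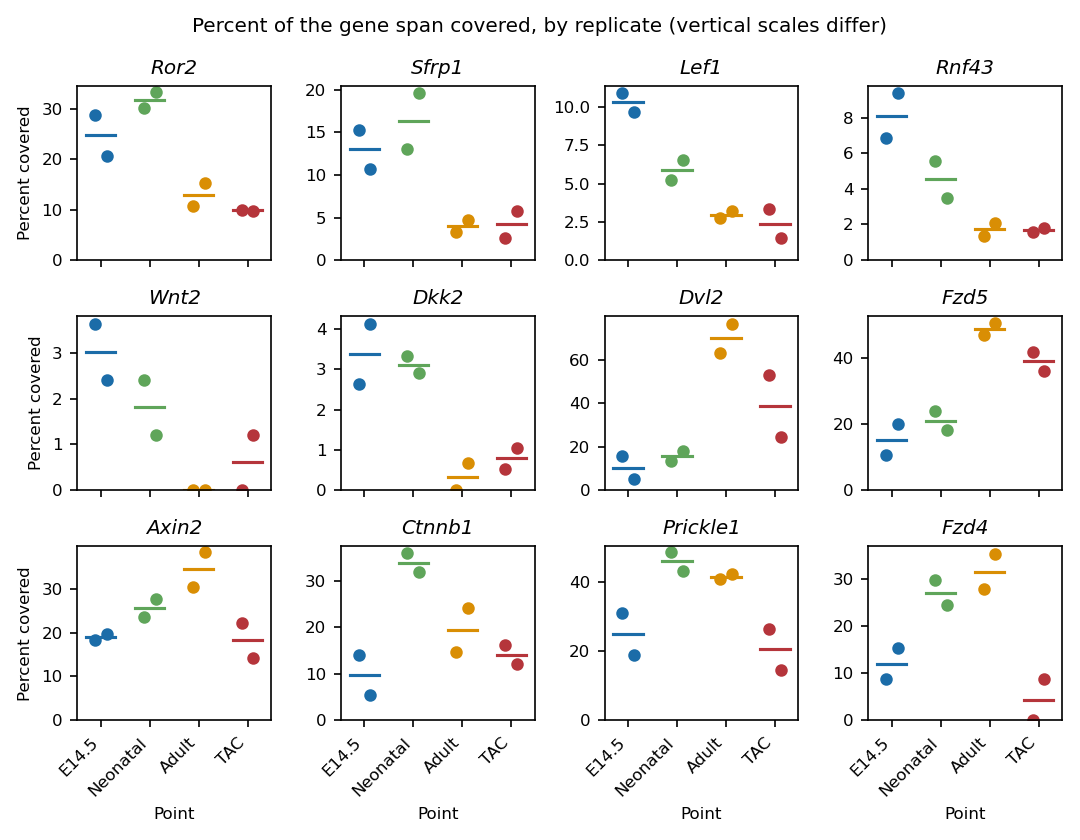
Percent of the gene span covered (vertical axis, in percent, each gene at its own scale) in the 2 replicates of each point (points) with their mean (bar) for 12 of the 46 genes. In the top and middle rows, Ror2 and Sfrp1 were lower in all adult and TAC lists than in all earlier lists, and Dvl2 and Fzd5 were higher.

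The membrane ubiquitin ligases Rnf43 and Znrf3 remove Frizzled receptors from the cell surface. Rnf43 (chr11:87663087-87735539), the more covered of them, was at 6.84% and 9.37% at E14.5, 5.58% and 3.48% in neonatal CMCs, 1.38% and 2.07% in adult CMCs, and 1.6% and 1.79% after TAC. Its points were in order without overlap from E14.5 through neonatal to adult. Znrf3 was higher at each of the same points, from 1.95% and 1.78% to 3.04% and 3.25% and to 4.36% and 6.03%, again without overlap, before 4.95% and 2.5% in TAC CMCs. The limma adjusted p from E14.5 to adult was 0.164 for Rnf43 and 0.288 for Znrf3.

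In the cytoplasm, Dvl2 (chr11:70000592-70010109), a Dishevelled protein that relays the signal from Frizzled receptors, had the largest differences of all members in percentage points in each contrast with the adult: 54.2 from neonatal, 59.4 from E14.5 and -31 to TAC. On the log2 scale Dvl1 (2.95 from E14.5 to adult) and Fzd4 (-3.37 from adult to TAC) were further apart. Dvl2 was covered over 15.5% and 5.26% at E14.5, 13.3% and 17.8% in neonatal CMCs, 63.1% and 76.4% in adult CMCs, and 52.9% and 24.6% after TAC. The adult replicates lay above all other lists, and the log2 change from E14.5 was 2.79 ± 0.592 (SE), with the smallest adjusted p of any member in that contrast (limma adjusted p = 0.13). From adult to TAC the log2 change was -0.923 ± 0.592 (SE; limma adjusted p = 0.724), or -0.388 without the second TAC list. It was -0.344 with the lists scaled to the same mean, and turned to 1.13 with CA-run peaks left out. The adult value came from wide domains: the widest peak on the gene was 7558 and 9360 bp in the adult lists, 3403 and 1211 bp in the TAC lists and at most 1194 bp before. The last 0.25 of the gene was covered over 100% in both adult lists and over 0%, 0%, 3.95% and 21.1% in the earlier lists. Dvl2 ends 73 bp from Acadvl, a gene of fatty acid oxidation on the opposite strand. Acadvl was itself covered over 9.55% and 0% at E14.5, 0% and 49.9% in neonatal CMCs, 59.8% and 64.8% in adult CMCs, and 23% and 22.8% after TAC. The adult domains ran across the ends of both genes, so the values of the 2 genes are not independent. The log2 change of Dvl2 from E14.5 to adult was 0.739 with CA-run peaks left out and 0.749 with peak centres counted, and it ranged from 2.1 to 3.49 as single lists were left out. The CA-run filter searched the whole of each peak, so wide domains gave it more room to find a run than narrow peaks.

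Ctnnb1 (chr9:120933400-120960507), which encodes beta-catenin, was highest in neonatal CMCs. It was covered over 14% and 5.54% at E14.5, 35.9% and 31.9% in neonatal CMCs, 14.7% and 24.1% in adult CMCs, and 16.1% and 12.1% after TAC. Both neonatal lists were above every other list, with a log2 change of 1.81 ± 0.505 (SE; limma adjusted p = 0.56) from E14.5 and -0.812 ± 0.505 (SE; limma adjusted p = 0.701) to adult. The former was 0.985 with peak centres counted, and the latter -0.258 with an equal number of peaks. Csnk1e (chr15:79417852-79442143), the casein kinase that phosphorylates Dishevelled, was at 20.4% and 28.4% at E14.5 and 42.5% and 44.7% in neonatal CMCs, but its adult (21.6% and 44.8%) and TAC (33.9% and 5.64%) replicates lay far apart.

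Axin2 (chr11:108920349-108950783), a scaffold of the destruction complex and a common target of Wnt signalling, was at 18.3% and 19.6% at E14.5, 23.6% and 27.6% in neonatal CMCs, 30.4% and 38.5% in adult CMCs, and 22.3% and 14.3% after TAC. Its first 3 points followed each other without overlap, and both TAC lists lay below both adult lists (log2 change -0.901 ± 0.336, SE; limma adjusted p = 0.676), and this held for the first TAC list taken alone. The change from adult to TAC was -0.332 with the lists scaled to the same mean. With CA-run peaks left out, the log2 change from neonatal to adult turned from 0.407 to -0.194. Gsk3b (chr16:38089001-38246084), the kinase of the same complex, had no pair of neighbouring points further apart than 4.71 percentage points in their means, with 10.1% and 12% at E14.5, 13.2% and 18.4% in neonatal CMCs, 13.9% and 13.3% in adult CMCs, and 12.1% and 6.96% after TAC. The other cytoplasmic members (Dvl1, Dvl3, Axin1, Apc and Csnk1a1) lay between 0% and 33.9%.

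**Figure D4:**
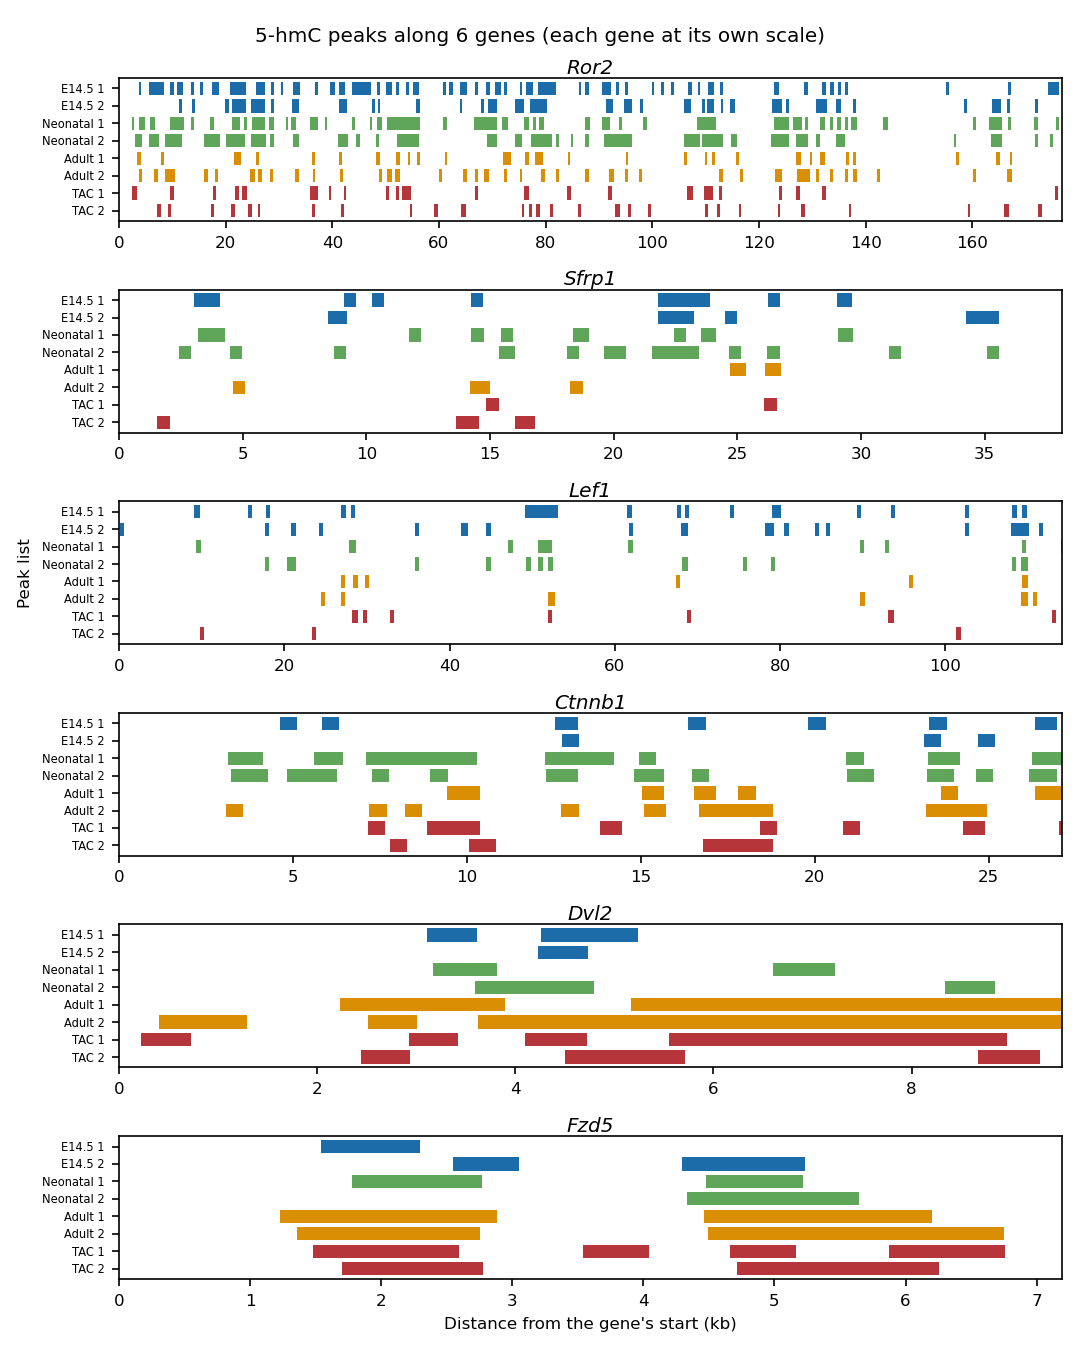
Peaks of the 8 lists (rows, colour by point) along 6 genes, drawn against the distance from the gene's start in kb, each gene at its own scale. Early lists held more and wider peaks on Sfrp1 and Lef1 and wider ones on Ror2, where the 37 peaks of the second adult list outnumbered those of 2 early lists (33 and 30), while on Dvl2 the adult domains of 7558 and 9360 bp ran through the end of the gene.

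Of the TCF/LEF factors, Tcf7l2 (chr19:55741810-55933655) was the most covered, with 19.6% and 19.9% at E14.5, 27.5% and 34.1% in neonatal CMCs, 22% and 27.1% in adult CMCs, and 22.7% and 12.1% after TAC. Both neonatal lists were above all other lists. Lef1 (chr3:131110297-131224357) was covered less at each point up to the adult, with 10.9% and 9.7% at E14.5, 5.21% and 6.51% in neonatal CMCs, 2.75% and 3.19% in adult CMCs, and 3.35% and 1.43% after TAC. The first 3 points did not overlap, and the log2 change from E14.5 to adult was -1.51 ± 0.426 (SE; limma adjusted p = 0.204), or -0.654 with an equal number of peaks per list. Peaks on Lef1 numbered 16 in each E14.5 list and 6 in each adult list. Tcf7 and Tcf7l1 lay between 6.31% and 29.5%.

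Of the planar polarity genes, Prickle1 (chr15:93499111-93595902), a cytoplasmic partner of Vangl2, had the highest coverage, at 31% and 18.7% at E14.5, 48.5% and 43.1% in neonatal CMCs, 40.8% and 42.1% in adult CMCs, and 26.4% and 14.6% after TAC. All neonatal and adult lists were above all E14.5 and TAC lists. The log2 change from E14.5 to neonatal was 0.895 ± 0.4 (SE; limma adjusted p = 0.785) and that from adult to TAC -1.04 ± 0.4 (SE; limma adjusted p = 0.7), the latter -0.633 without the second TAC list. With peak centres counted these were 0.192 and -0.43, and with the lists scaled to the same mean 0.495 and -0.467. Daam1, a formin that links Dishevelled to actin, had the same order, with 21.5% and 11.9%, 32.8% and 29.1%, 25.2% and 30.1%, and 21.1% and 11.1%. Its log2 change from adult to TAC was -0.805, or -0.244 with the lists so scaled. Vangl2 (chr1:172000960-172027295), a membrane protein of the same pathway, was at 13.6% and 19.4%, 21.4% and 31.9%, 15.3% and 21.4%, and 16.8% and 12%, so that its neonatal value was not separated from its adult value. Celsr1, an atypical cadherin, lay between 7.31% and 28.6%.

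Regions shared by both replicates of a point were found on 34 of the 46 genes for the E14.5 lists, on 37 for the neonatal, 33 for the adult and 28 for the TAC lists. Among all genes of at least 2 kb the shares were 46.6%, 51.8%, 46.5% and 31.1%, against 73.9%, 80.4%, 71.7% and 60.9% of the members, which are not matched for length here. Stretches shared by both replicates of all 4 points, of 44 to 604 bp, numbered 9 and lay on 5 members (10.9%, against 5.36% of genes): 4 on Prickle1, 2 on Ror1 and 1 each on Gsk3b, Tcf7l2 and Vangl2. All 9 were intronic. With lists cut to an equal number of peaks 2 of the 5 members remained, Ror1 and Gsk3b, and with CA-run peaks left out Ror1 and Prickle1 remained. With the second TAC list left out, the members with such a stretch numbered 9.

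In 4 of these 9 stretches the surrounding 300 bp held a CA run, and 3 of the 9 held no CpG. This went with a pattern over all genes. Where the regions of the points were merged, a CA run lay in the central 300 bp of 8.84% of the regions shared by both replicates at 1 point, 11.7% of those at 2 points, 16.7% at 3 and 22.1% at 4. On the members the shares were 4.82%, 7.43%, 14.3% and 55.6%, the last from 5 of 9 regions, against 5.42% of 300-bp windows over the genome. The regions held a mean of 4.61 to 5.11 CpGs per window over all genes and 4.89 to 5.75 on the members. The CA run was looked for after the sequences had been seen, and its part in the enrichment was not tested.

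**Figure D5:**
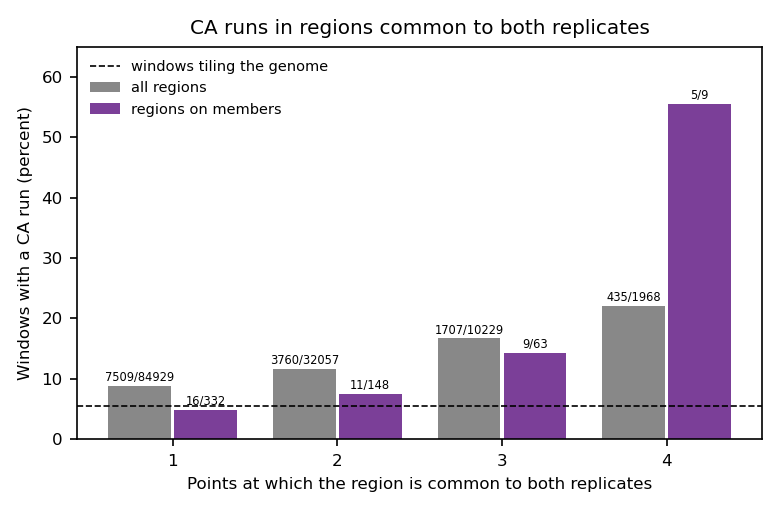
Percent of 300-bp windows with a CA run (vertical axis) among merged regions shared by both replicates at 1, 2, 3 or 4 points (horizontal axis), for all regions (grey) and those on the 46 genes (purple), with counts above the bars; the dashed line is the share over the genome, 5.42%. The share was higher at each further point in both sets, and the last purple bar stands for 9 regions.

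Bases under peaks of both E14.5 and both neonatal lists and of no adult or TAC list lay on 20 members (43.5%, against 19.9% of genes, not matched for length) and came to 11 kb. Of these, 3267 bp were on Ror2, 964 on Tcf7l2, 785 on Tcf7l1, 709 on Wnt5b, 596 on Ror1, 515 on Prickle1, 501 on Sfrp1, 480 on Csnk1e and 471 on each of Dkk2 and Ryk. Bases under peaks of both adult lists and of no E14.5 or neonatal list lay on 25 members (54.3%, against 35%, again not matched for length) and came to 36.1 kb. Over all genes the first kind of base came to 1710 kb and the second to 5960 kb, so the second was the larger there too. Among the members Ror1 led in the second kind with 4201 bp, followed by Tcf7l1 (3824), Dvl2 (3657), Daam1 (3472) and Lrp6 (3182). Ror2 had 189 bp of the latter kind, and Sfrp1, Dkk2 and Lef1 had none. The 2 Ror genes thus differed in which kind of region they carried.

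Few transcription start sites (TSSs) of the members lay under a peak: the start itself was covered in at most 2 of the 46 genes in any list (4.35%), against 2.44% to 5% of all genes. A peak within 1 kb of the start was commoner, and lay on 13% and 15.2% of the members in the E14.5 lists (20.5% and 19.1% of all genes), 30.4% and 21.7% in the neonatal lists (21.4% and 23.5%), 30.4% in both adult lists (19.2% and 22%), and 21.7% and 10.9% in the TAC lists (19% and 16.6%). The members were thus above all genes in 4 lists and below them in the other 4, with no test. Their promoters, taken as 1 kb on each side of the start, were richer in CpGs than those of all genes, with a median of 6.65 against 3.55 CpGs per 100 bp. Vangl2 was the member with a peak within 1 kb of a start in all 8 lists. The letters CTTTGAT, the core bound by TCF/LEF factors, were found on either strand in 3.26% of 552 merged regions on members (300-bp windows) and in 3.72% of 129183 regions over the genome.

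A second list of 58 genes of the pathway, which held the remaining Wnt, Frizzled and Dact genes and other regulators, gave a comparison. Of these, 54 could be tested and none was called by limma over the 4 points or in any contrast. From E14.5 to adult 14 of the 58 were higher and 16 lower without overlap, where 19 and 7 of the 46 members and 24.9% and 15.4% of all genes were. With the lists scaled to the same mean, these became 8 and 20 of the 58 genes, 11 and 14 of the 46 members, and 16.4% and 26% of all genes. From adult to TAC 2 of the 58 were higher and 15 lower, against 0 and 15 of the members and 5.16% and 20.4% of all genes. With the lists scaled, these became 6 and 5 of the 58, 7 and 7 of the members, and 14.4% and 9.73% of all genes. Their mean percent covered lay between 5.14 and 13.3 in the 8 lists and above that of all genes of at least 2 kb (4.27 to 9.46) in each. That of the members was 7.62 to 17.9, and in the first E14.5 list both sets of pathway genes were at 10.8. No ratio to length classes was computed for the second list. Fzd10 and Dact1 held no peak in any list.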

How the data were processed

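The 8 hMeDIP-seq lists were used as deposited. Per the labels and the study's methods, the authors aligned reads to mm10 with BWA (version 0.7.4-r385), removed duplicates with Picard, and called regions over input DNA in each sample with HOMER in its histone mode. The deposited unit is the position of each peak, with no read depth per gene, so the values measure extent and not amount of 5-hmC. The depth behind each peak is unknown and no counting interval can be given. The samples without a list (11) were not analysed here.

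Spans came from curated RefSeq transcripts of GRCm38 (the first start to the last end per gene). Percent covered was computed in Python 3.11.15 and tested with limma 3.58.1 in R 4.3.3 (eBayes with trend) on log2(percent + 1) over all 8 samples, with all points in 1 fit. Genes of at least 2 kb with a mean of at least 1% entered, and the threshold was an adjusted p of 0.05. Sequences are RefSeq GRCm38. The code was tested on simulated data.

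Values in every list are given for members past the threshold (none), the 3 largest differences in each direction and contrast among members without overlap, the most covered member of each role, and those with a region shared at all 4 points. Others were named after their values were seen. The members and lists were chosen with earlier results of these data known. Each point's 2 samples are biological replicates, and p-values measure the spread between them. Replicate numbers were not taken to pair the samples, though the second E14.5, neonatal and adult lists had in common a higher share of CA-run peaks. Alternatives were another annotation (GENCODE M21), other spans, filters, pseudocounts and scalings, an equal number of peaks, and each sample left out. Leaving out CA-run peaks (those with a run anywhere in the peak), and fitting without TAC, were added after seeing the data.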

Additional observations from a re-analysis of the deposited data

How the results depend on the processing

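The number of members called by limma (0 over the 4 points and in each contrast) became 1 under some alternatives. Without the filter on low values Sfrp5 was called over the 4 points and from E14.5 to neonatal and neonatal to adult (1 in each), with an equal number of peaks Fzd2 (1 over the 4 points and 1 from adult to TAC), and with peak centres per 10 kb Fzd3 (1 over the 4 points). As each sample was left out, the calls ranged from 0 to 1 over the 4 points, from neonatal to adult, from adult to TAC and from E14.5 to adult, and stayed at 0 from E14.5 to neonatal. Those were Fzd2 without either adult replicate, Fzd8 without TAC replicate 1 and Fzd4 without TAC replicate 2, where the group left with 1 sample is assumed to vary like the others. These members have few peaks, and their spans are short except for Fzd3. The share of all genes called under these alternatives was not computed.

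Members without overlap fell from 24 to 15 from E14.5 to neonatal and from 15 to 9 from adult to TAC when peak centres were counted. As samples were left out they ranged from 24 to 36 from E14.5 to neonatal, 18 to 33 from neonatal to adult, 15 to 36 from adult to TAC and 26 to 40 from E14.5 to adult, where fewer values must be ordered. The share of all genes moved too. From adult to TAC it was 16.1% higher and 37.8% lower without the first TAC list, and 17.3% and 26.8% without the second. For peak centres and the other samples left out, that share was not computed, so these counts do not single out the members. Mean percent covered was 7.59 at E14.5 and 10.2 in neonatal CMCs with an equal number of peaks, 13.1 in neonatal CMCs with 5 kb added on each side, and 7.83, 11.4 and 11.7 at E14.5, neonatal and adult without CA-run peaks. As samples were left out it ranged from 9.44 to 10.8, 14 to 15.5, 13.6 to 17.9 and 7.62 to 12.9 over the 4 points. Members with a region shared at all 4 points numbered 2 with an equal number of peaks and 2 without CA-run peaks, and 5 to 9 as samples were left out.

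The fitted log2 change took the other sign for Wnt9b from E14.5 to neonatal with an equal number of peaks (0.169), Wnt2b with 5 kb added (0.0228), Fzd1 from E14.5 to adult with 5 kb added (-0.0431), Axin2 from neonatal to adult without CA-run peaks (-0.194), and Dvl2 from adult to TAC without CA-run peaks (1.13) and with peak centres (0.483). The cause was not tested. With the replicate block, 0 members were called in any contrast and over the 4 points. Deviations of same-numbered samples from their group means correlated at 0.225 for E14.5 with neonatal and between 0.0295 and 0.096 for the other 5 pairs of points, so the numbers were not taken as pairs.

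With 2 samples a point, a missed threshold does not show that coverage was equal. Peak lists hold no read counts, and a difference in peak calling between lists cannot be told apart from a difference in 5-hmC.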
